A study of Mus musculus with 12 samples.

Results

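The genes described here encode the CD8 coreceptor, the signalling chains of the T cell receptor (TCR) and the proteins that act next to it. They were chosen by name and comprise *Cd8a*, *Cd8b1*, *Cd3d*, *Cd3e*, *Cd3g*, *Cd247*, *Lck*, *Zap70*, *Cd5* and *Cd6*, which are 10 of the 13884 named genes measured, among 25741 features in all. Each gene was represented by the brightest of its probes that were well above background on at least 2 arrays. RNA of mouse CD8+ T cells was measured on 12 Agilent 1-colour arrays, with 1 sample on each, and all animals were labelled as female C57BL/6 of an age not given in the sources used here. Total CD8+ T cells were taken from nodes of 2 sites, peripheral (PLN) and mesenteric (MLN), the latter draining the gut. The 8 total-cell arrays held 4 WT samples (2 PLN and 2 MLN), 2 AID KO samples (1 PLN and 1 MLN) and 2 uMT samples (1 PLN and 1 MLN). Naive cells, gated as low for CD44, came from PLN of AID KO and uMT mice only. They were split into fractions labelled Sca1p and Sca1m, with 1 array for each genotype and fraction and no WT array. AID is the cytidine deaminase that B cells need for class switching and hypermutation, and uMT mice have no mature B cells, as their mu heavy chain cannot be made in its membrane-bound form. Both defects are carried in the germ line and not in CD8+ T cells alone.

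The TCR recognises peptide on a major histocompatibility complex (MHC) molecule but has no signalling domain of its own. It is assembled with CD3 gamma, delta and epsilon chains and with the zeta chain, whose cytoplasmic motifs are phosphorylated by the kinase LCK and then bind the kinase ZAP70. CD8 binds MHC class I and brings LCK to the receptor, while CD5 and CD6 are related scavenger receptor proteins of T cells that tune the signal. These proteins are part of the identity of a mature CD8+ T cell, and their messages are made in resting cells as well as in activated ones.

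The labels do not say that samples of a group came from separate animals, and the submitters describe a design without replicates, so every p-value measures only the spread between these arrays around the terms of the fit. Between 50.1% and 56.8% of the spots of an array were well above background. The arrays stood on 3 slides of 4, and the naive arrays filled the third, so total and naive cells were not compared. *Ly6a*, which encodes Sca-1, read 3.87 and 3.40 on the Sca1p arrays and 0.03 and -0.10 on the Sca1m arrays. Levels throughout are log2 processed intensities minus the 75th percentile of the array, and a difference of 1 is therefore a doubling. Levels of different genes are not compared, because probes differ in brightness. Lack of overlap between groups is given as a description only. With so few arrays a group it is easily met, and its share over all features is not given here. Of markers of other cells, *Cd4* was well above background on 12 arrays and read between -0.38 and 0.69 in total cells and between 1.43 and 1.83 in naive cells. Of 14 B cell markers, 4 were well above background on all 12 arrays, among them *Cd79b* at 1.93 to 2.73, and 2, *Blk* and *Ebf1*, on 0. Of 8 dendritic cell markers 2 were, *Siglech* at 5.24 to 7.88 and *Cst3* at 2.15 to 2.58, while *Flt3*, *Xcr1* and *Clec9a* were on 0. Of 7 markers of macrophages and monocytes 3 were, among them *Itgam* at 3.43 to 5.40, while *Lyz2* and *Adgre1* were on 0. The part of these other markers in the results was not tested. In bulk RNA, fewer cells of a type and less RNA per cell cannot be told apart.

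No gene of the 10 passed the threshold of an adjusted p under 0.05 in limma in any of 7 comparisons of genotype, node or Sca-1 fraction. All 17 probes of the 10 genes were well above background on 12 of 12 arrays, so every gene had a measured level on every array. In the comparison of AID KO with WT, 0 of 10 were called, against 0.894% of all features. For uMT against WT the count was 0 against 0.035%, for both knockouts against WT 0 against 0.556%, and for uMT against AID KO in total cells 0 against 0.315%. For MLN against PLN it was 0 against 0.105%, for Sca1p against Sca1m 0 against 0.0155%, and for uMT against AID KO in naive cells 0 against 0.35%. With shares this low, a count of 0 among 10 genes lies near the background in each comparison. In all 70 tests, 1 had an unadjusted p under 0.05 in limma, where 8.37% to 17.8% of all features did so, depending on the comparison. A p that misses the threshold does not show that levels were the same, and the 95% intervals are therefore given: 67 of 70 lay within 0.5 log2 units of 0 on both sides, which is 1.41-fold. The outermost bound was 0.62, for *Cd3g* in uMT against WT, or 1.53-fold.

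**Figure D1:**
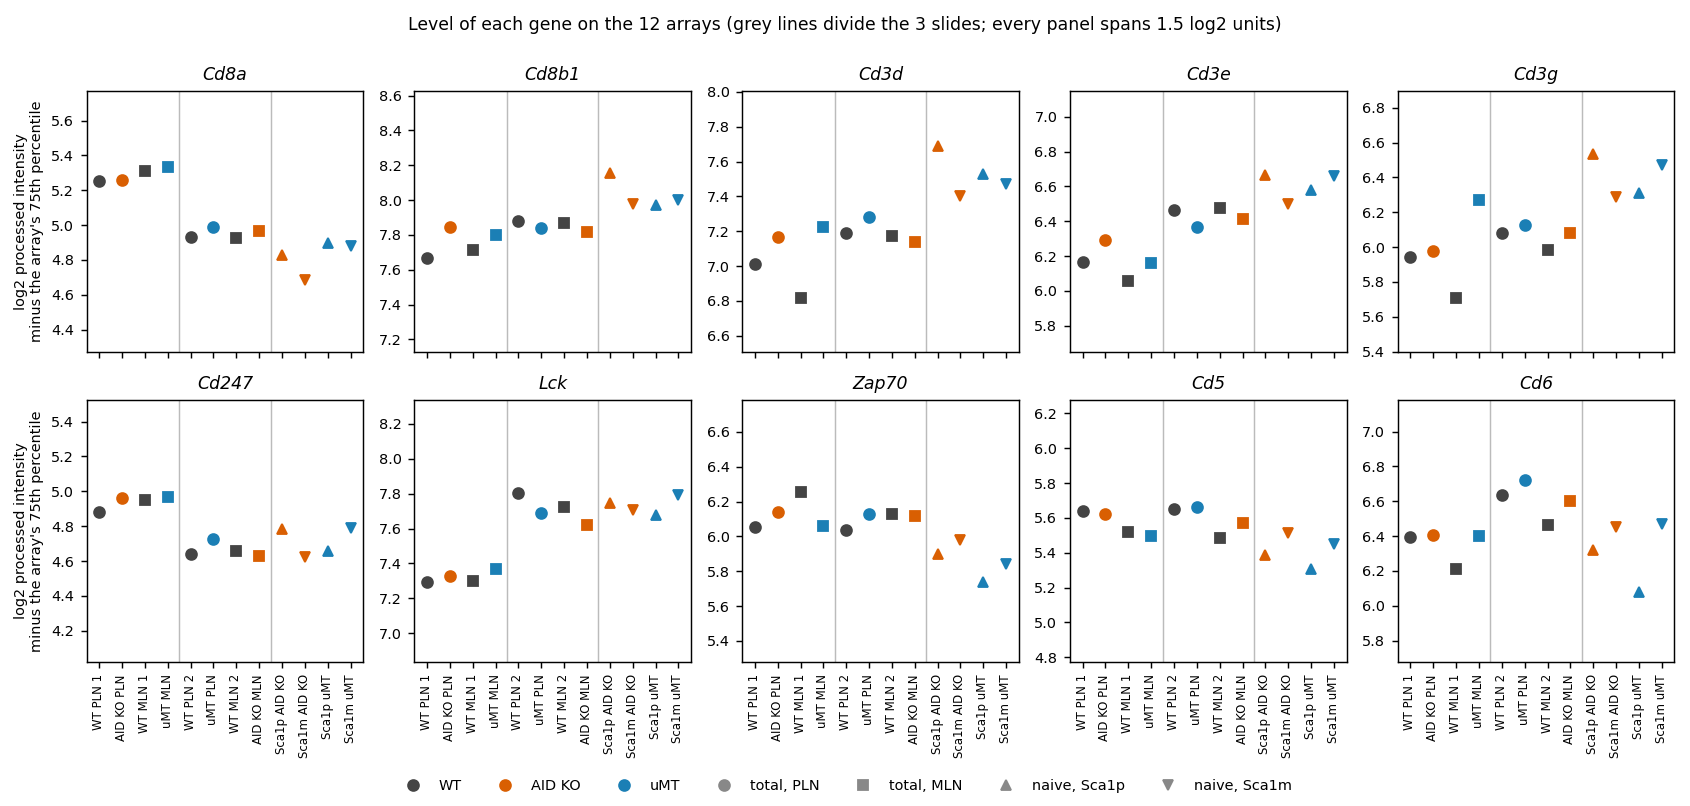
Level of each gene on each of the 12 arrays, as log2 processed intensity minus the array's 75th percentile, with 1 point per array, colour for genotype and shape for node or Sca-1 fraction. Grey lines divide the 3 slides, and the steps of *Cd8a*, *Lck* and *Cd247* lie at the line between slide 1 and slide 2, not between genotypes.

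Neither CD8 chain separated the knockouts from WT. *Cd8a*, the alpha chain found in both forms of CD8, read 5.25 and 5.31 in WT PLN and WT MLN of slide 1, and 4.93 in both WT samples of slide 2. AID KO read 5.26 in PLN on slide 1 and 4.97 in MLN on slide 2, while uMT read 5.33 in MLN on slide 1 and 4.99 in PLN on slide 2. Each knockout array thus lay near the WT values of that slide, and the genotypes overlapped. The fitted difference was 0.01 for AID KO against WT (95% interval -0.18 to 0.20) and 0.06 for uMT against WT (-0.14 to 0.25). *Cd8b1*, the beta chain that pairs with alpha on conventional CD8+ T cells, read between 7.67 and 7.88 on the 4 WT arrays, 7.85 and 7.82 in AID KO, and 7.84 and 7.80 in uMT. All 4 knockout values lay inside the WT range. In naive cells *Cd8b1* read 8.16 in Sca1p AID KO, 7.98 in Sca1m AID KO, 7.97 in Sca1p uMT and 8.001 in Sca1m uMT. The Sca1p samples lay on both sides of the Sca1m samples, and the difference was 0.07 ± 0.11 (standard error of the fit). Naive *Cd8a* read 4.83 in Sca1p and 4.68 in Sca1m of AID KO, and 4.90 and 4.88 in uMT. Both uMT arrays lay above both AID KO arrays, by 0.13 ± 0.09 (95% interval -0.09 to 0.36, adjusted p = 0.834 in limma), which did not pass, and the fractions differed by 0.08 ± 0.09.

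The CD3 chains gave the largest genotype differences of the 10 genes in total cells. *Cd3g*, the gamma chain, read 5.94 and 6.08 in WT PLN, 5.71 and 5.99 in WT MLN, 5.98 and 6.08 in AID KO PLN and MLN, and 6.13 and 6.27 in uMT PLN and MLN. Both uMT arrays lay above all 4 WT arrays, without overlap. The difference was 0.27 ± 0.14 (95% interval -0.07 to 0.62, adjusted p = 0.363 in limma). *Cd3d*, the delta chain, read 7.01 and 7.19 in WT PLN, 6.82 and 7.17 in WT MLN, 7.17 and 7.14 in AID KO, and 7.28 and 7.22 in uMT. Again both uMT arrays lay above the WT arrays, by 0.20 ± 0.11 in the fit (-0.07 to 0.48, adjusted p = 0.380 in limma). Neither difference passed the threshold. Between uMT and AID KO total cells, *Cd3g* and *Cd3d* again did not overlap and differed by 0.17 and 0.10. The 10 genes ran from -0.09 for *Cd3e* to 0.17 for *Cd3g*, with 95% bounds of -0.37 and 0.57 at the widest. With both knockouts set against WT, *Cd3g* differed by 0.19, *Cd3d* by 0.16 and *Cd6* by 0.11, and the other 7 by -0.03 (*Lck*) to 0.05 (*Cd8b1*).

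Both values rested mainly on the uMT MLN array. The WT MLN array of the same slide, WT MLN 1, was the lowest of all for *Cd3d* and *Cd3g*. Between these 2 arrays *Cd3g* differed by 0.56 and *Cd3d* by 0.41, while the uMT PLN array exceeded the WT PLN array of its slide by 0.05 and 0.09. Without the uMT MLN array the fitted difference from WT was 0.01 for *Cd3g* and 0.05 for *Cd3d*, and without the uMT PLN array it was 0.53 and 0.36, with adjusted p of 0.197 and 0.269 in limma. The uMT MLN array also had the highest mean level of 3 haemoglobin genes, at 1.17, against -0.46 and 0.34 in the WT MLN arrays. In the other total-cell arrays that mean lay between -4.98 and -0.88. Of CD4 T cell markers 5 of 6 stood higher in uMT than in WT (median 0.26), with 0 called by limma, against 0.035% of all features. Their mean level per array ran from -0.67 to -0.32 in uMT and from -1.26 to -0.52 in WT. Whether either list bears on the CD3 values was not tested.

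*Cd3e*, the epsilon chain that pairs with both gamma and delta, read 6.16 and 6.47 in WT PLN, 6.06 and 6.47 in WT MLN, 6.29 and 6.41 in AID KO, and 6.37 and 6.16 in uMT PLN and MLN. The genotypes overlapped, and the difference of uMT from WT was -0.03 ± 0.10 (-0.28 to 0.22). *Cd247*, which encodes the zeta chain, read 4.88 and 4.64 in WT PLN, 4.95 and 4.66 in WT MLN, 4.96 and 4.63 in AID KO, and 4.73 and 4.97 in uMT PLN and MLN. The values of this brightest probe split by slide, with 4 arrays between 4.88 and 4.97 on slide 1 and 4 between 4.63 and 4.73 on slide 2. They did not split by genotype.

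The genes of the 3 CD3 chains lie side by side on chromosome 9, and *Cd3d* and *Cd3g* were both lowest in WT MLN 1 and higher in uMT MLN. For that reason the 250 bases before their start sites are shown, from RefSeq on GRCm38.p6, 5′ to 3′ on the strand of the gene. *Cd3g* lies at chr9:44980432-44980681 on the minus strand, *Cd3d* at chr9:44981536-44981785 on the plus strand and *Cd3e* at chr9:45009612-45009861 on the minus strand. Capitals mark matches on either strand to 5 motifs. The motif of ETS factors is AGGAAG, that of E proteins is CAGNTG, that of TCF/LEF factors is CTTTGA, that of RUNX factors is TGTGGT and the TATA box is TATAAA. No 2 of the marked matches overlap.
Cd3g: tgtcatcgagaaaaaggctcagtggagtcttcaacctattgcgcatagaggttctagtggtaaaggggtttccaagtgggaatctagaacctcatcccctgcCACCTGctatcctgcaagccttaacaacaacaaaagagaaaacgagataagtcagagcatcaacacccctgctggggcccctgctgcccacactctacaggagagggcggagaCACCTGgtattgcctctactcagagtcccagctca
Cd3d: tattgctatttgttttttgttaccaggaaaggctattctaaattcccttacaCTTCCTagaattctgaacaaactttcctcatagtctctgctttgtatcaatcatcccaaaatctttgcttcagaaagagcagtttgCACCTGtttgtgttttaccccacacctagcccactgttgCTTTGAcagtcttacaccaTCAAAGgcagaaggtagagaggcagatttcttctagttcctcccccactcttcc
Cd3e: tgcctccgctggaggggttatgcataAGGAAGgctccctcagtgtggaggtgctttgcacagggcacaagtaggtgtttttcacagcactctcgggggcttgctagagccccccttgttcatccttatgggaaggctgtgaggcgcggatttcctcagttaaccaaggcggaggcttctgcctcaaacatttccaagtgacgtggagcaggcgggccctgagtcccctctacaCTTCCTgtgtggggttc
The *Cd3g* window holds 2 E protein matches, the *Cd3d* window 1 ETS, 1 E protein and 2 TCF/LEF matches, and the *Cd3e* window 2 ETS matches. No single motif is shared by all 3 windows. Of 32851 RefSeq promoter windows of this length, 29.5% hold the ETS motif, 44.8% the E protein motif, 13.8% the TCF/LEF motif, 14.0% the RUNX motif and 12.4% the TATA box. A match is only a run of letters, and its use was not measured here. Promoter entries were found for 8 of the 10 genes.

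**Figure D2:**
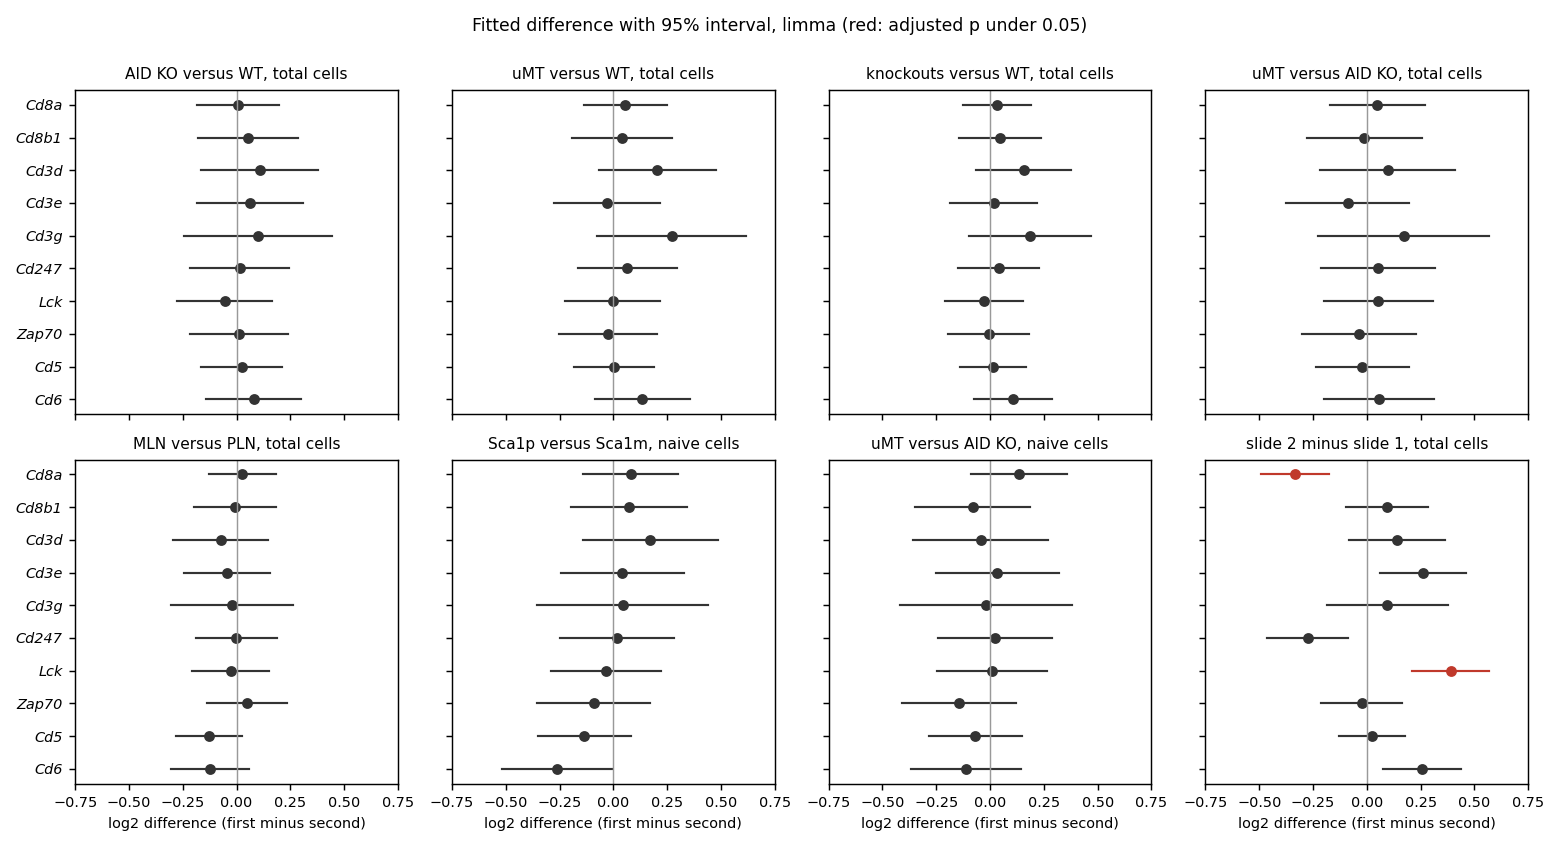
Fitted log2 difference (point) with its 95% interval (line) for each gene in the 7 comparisons and for slide 2 minus slide 1, from 1 limma fit over 12 arrays. Red marks an adjusted p under 0.05, reached only by *Cd8a* and *Lck* in the slide panel.

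By their brightest probes, the kinases did not separate the knockouts from WT. *Lck*, the kinase bound to CD8, read 7.29 and 7.30 in the WT arrays of slide 1, 7.33 in AID KO PLN and 7.36 in uMT MLN. On slide 2 it read 7.81 and 7.72 in WT, 7.69 in uMT PLN and 7.62 in AID KO MLN. The knockouts lay above WT on the first slide and below on the second, and the fit gave -0.0020 ± 0.09 for uMT and -0.06 ± 0.09 for AID KO against WT. *Zap70* read between 6.04 and 6.26 on the 4 WT arrays, 6.14 and 6.12 in AID KO, and 6.13 and 6.06 in uMT, so that every knockout value fell within the WT range. Its 95% interval was -0.22 to 0.24 for AID KO and -0.25 to 0.20 for uMT. The dimmer second probe of *Lck* read between 3.55 and 3.88 in WT, 3.53 and 3.42 in AID KO, and 3.51 and 2.97 in uMT PLN and MLN. There all 4 knockout arrays lay below all 4 WT arrays, by 0.32 ± 0.15 in the fit (95% interval -0.68 to 0.05, adjusted p = 0.337 in limma), which did not pass.

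*Cd5* and *Cd6*, the inhibitory and modulatory receptors, had the largest fitted differences by node of the 10 genes, and neither passed the threshold. *Cd5*, whose surface level is known to follow the strength of self-recognition, read 5.64, 5.65, 5.63 and 5.66 in the 4 PLN samples (both WT, AID KO and uMT) and 5.52, 5.49, 5.57 and 5.49 in the matching MLN samples. All MLN samples lay below all PLN samples, by 0.13 ± 0.06 (95% interval -0.28 to 0.03, adjusted p = 0.630 in limma). This lack of overlap is not read as a node effect. *Cd6*, a receptor for ALCAM, read 6.39, 6.64, 6.41 and 6.72 in PLN and 6.21, 6.46, 6.603 and 6.40 in MLN. The 2 nodes overlapped, and the fitted difference was -0.12 ± 0.07 (-0.30 to 0.06). The other 8 genes differed between nodes by -0.07 (*Cd3d*) to 0.05 (*Zap70*). By genotype neither gene separated, with *Cd5* at 0.02 in AID KO and 0.0034 in uMT against WT, and *Cd6* at 0.08 and 0.14. The knockout difference was not called to vary between nodes for any of the 10 genes, nor for any feature (0%), by limma, with 0 of the 10 at an unadjusted p under 0.05. The widest interval of this interaction was that of *Cd3g*, from -0.27 to 0.85.

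In naive cells the largest fitted difference by Sca-1 fraction was that of *Cd6*. *Cd6* read 6.32 in Sca1p and 6.45 in Sca1m of AID KO, and 6.08 and 6.47 in the same fractions of uMT. Both Sca1p arrays lay below both Sca1m arrays, by 0.26 ± 0.10 (95% interval -0.52 to -0.0048, unadjusted p = 0.0470, adjusted p = 0.590 in limma). That value was -0.14 without either uMT array and -0.39 without either AID KO array. *Cd5* read 5.39 in Sca1p and 5.51 in Sca1m of AID KO, and 5.31 and 5.45 in uMT, also without overlap and with a difference of -0.13 ± 0.09. *Cd3d* ran the other way, at 7.69 and 7.40 in AID KO and 7.53 and 7.47 in uMT, a difference of 0.17 ± 0.13. None of these 3 passed the threshold, and *Cd3d* stood at 0.02 under quantile normalization. *Zap70* read 5.90 in Sca1p and 5.98 in Sca1m of AID KO, and 5.74 and 5.84 in uMT, lower in Sca1p by 0.09 ± 0.11, with overlap. Its 2 uMT arrays lay below its 2 AID KO arrays, by 0.15 ± 0.11 (95% interval -0.41 to 0.12, adjusted p = 0.865 in limma). *Cd3e*, *Cd3g* and *Cd247* differed between the fractions by 0.04, 0.04 and 0.02. *Lck* spanned 0.11 over the 4 naive arrays, from 7.68 to 7.79, the smallest naive range of the 10.

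The fractions differed by genotype in sign for several genes, though none of the 10 was called. In AID KO the Sca1p array exceeded the Sca1m array for 7 of 10 genes, with a median of 0.15, and in uMT for 2 of 10, with a median of -0.11. The test of that difference had negative estimates for 10 of 10 genes, with a median of -0.22, but 0 were called by limma, against 0.0898% of all features, and 0 had an unadjusted p under 0.05. The median over all features was -0.08, and 41.7% of them were positive. The largest estimate was that of *Cd3g*, at -0.41 ± 0.30 (95% interval -1.17 to 0.36). It compared 4 arrays, with 1 for each genotype and fraction. That leaves no spread among the naive arrays, so the errors and intervals of this test come from the total-cell arrays. Between uMT and AID KO in naive cells, the 10 differences ran from -0.15 for *Zap70* to 0.13 for *Cd8a*, with 95% bounds of -0.42 and 0.38 at the widest.

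The slide was the one term of the fit in which any of the 10 genes was called. By the brightest probes, slide 2 exceeded slide 1 by 0.39 ± 0.07 for *Lck* (adjusted p = 0.0191 in limma). It fell short by 0.33 ± 0.06 for *Cd8a* (adjusted p = 0.0196 in limma). For neither gene did the 4 arrays of slide 1 overlap the 4 of slide 2. Of all features 22% were called in that term, against these 2 of 10. *Cd247*, *Cd6* and *Cd3e* had an unadjusted p under 0.05 and no overlap between slides, but missed the adjusted threshold, at differences of -0.27, 0.25 and 0.26. In all, 5 of the 10 had such an unadjusted p in limma for the slide, near the 38.9% of all features that did. For 5 of the 10 genes the slide difference was larger than any of the 7 differences by genotype, node or fraction. Slides 1 and 2 each carry WT, AID KO and uMT total cells, and the genotype differences above were taken with the slide in the fit. By their brightest probes, *Cd8a* and *Lck* moved in opposite directions between the slides.

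Probes of the same gene did not always run together. The second probe of *Cd3e* differed by -0.26 between slide 2 and slide 1 and the brightest probe by 0.26, with adjusted p of 0.0785 and 0.0700 in limma, so neither passed. The brightest *Cd247* probe differed by -0.27 between these slides and its others by 0.02 and 0.35. From WT PLN 1 to WT PLN 2 the brightest *Lck* probe differed by 0.52 and its other probe by -0.09. From WT MLN 1 to WT MLN 2 these were 0.43 and -0.24. Both *Cd8a* probes were lower on slide 2 in these WT pairs. Between uMT MLN and WT MLN 1 the brightest *Lck* probe differed by 0.07 and its other probe by -0.91. For *Cd8a* the values were 0.02 and -0.45, and for *Zap70* -0.20 and -0.51. The other *Cd3d* probe stayed with the brightest, at 0.52 against 0.41, so the higher *Cd3d* reading of uMT MLN was seen with both probes. In the other 3 knockout arrays the brightest and other probes of the 6 genes lay within 0.15 of each other, except for *Cd247* in uMT PLN (0.09 against -0.39). Among 4975 genes with several kept probes, the median difference of uMT MLN from WT MLN 1 was 0.01 for the brightest and -0.11 for the other probes. The cause was not tested. With each of the 17 probes taken by itself, 2 of 119 tests had an unadjusted p under 0.05 in limma. In the fit by brightest probe, 8.37% to 17.8% of all features did so. Of the 119 tests of single probes, 0 were called by limma. The shares of all probes called in this way were 0.86% for AID KO against WT, 0.0343% for uMT against WT, 0.405% for both knockouts against WT, 0.268% for uMT against AID KO, 0.0872% for MLN against PLN, 0.0125% for Sca1p against Sca1m, 0.321% for uMT against AID KO in naive cells and 19.6% for the slides. These alternatives by probe were added after the data had been seen.

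**Figure D3:**
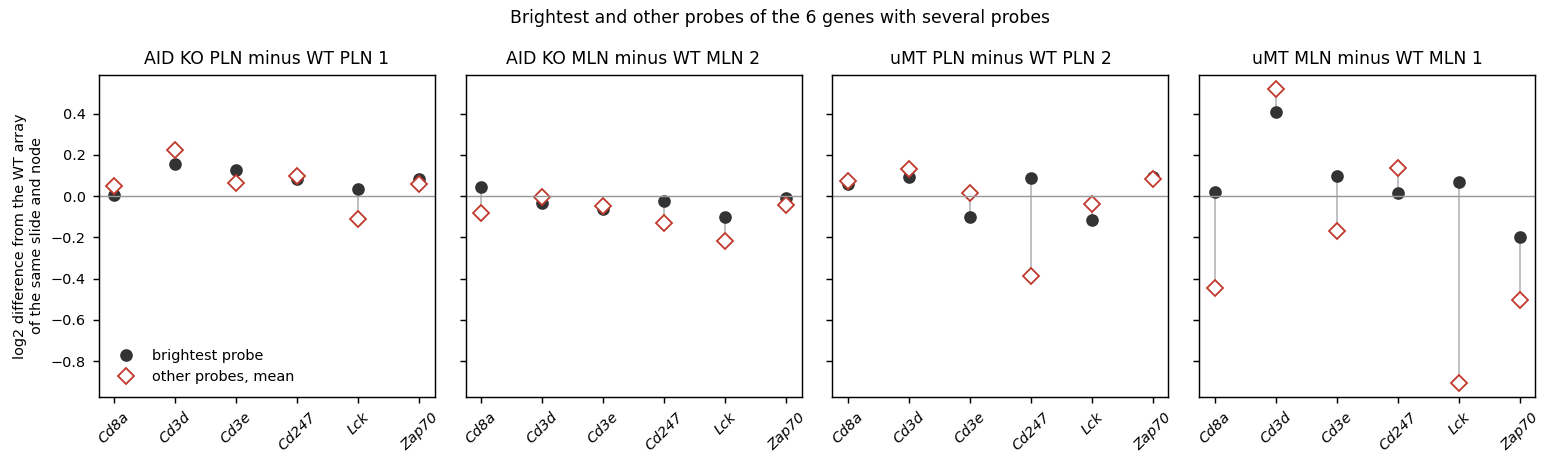
Log2 difference of each knockout array from the WT array of the same slide and node, for the brightest probe (filled circle) and the mean of the other probes (open diamond) of the 6 genes with several probes. In uMT MLN the other probes of *Cd8a*, *Lck* and *Zap70* lie at -0.45, -0.91 and -0.51, below their brightest probes.

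Set against other genes, the 10 varied little. The range of a gene over 12 arrays had a median of 0.56, from 0.35 for *Cd247* to 0.87 for *Cd3d*. The median was 1.01 over all 25741 features. It was 0.73 over the 1493 features with a mean level at least that of the dimmest of the 10. Over the 8 total-cell arrays the range ran from 0.18 for *Cd5* to 0.56 for *Cd3g*, with a median of 0.41 against 0.53 for those 1493 features. Of the 1493, 29.5% had a range below the median of the 10, so the 10 lay toward the low end but not apart from these features.

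Genes that sit side by side on a chromosome had the highest correlations of the 45 pairs, though not all such neighbours did. The mean of each slide was removed first, and r is given as a description, since the 12 arrays share scaling and some share a source group. *Cd3d* and *Cd3g*, divergent neighbours on chromosome 9, had r = 0.84, and *Cd3d* and *Cd3e*, also adjacent, had r = 0.58. Without uMT MLN and WT MLN 1, over 10 arrays, these were 0.67 and 0.50. *Cd5* and *Cd6*, neighbouring coding genes on chromosome 19, had r = 0.81, and 0.92 without those 2 arrays. *Cd8a* and *Cd8b1*, neighbours on chromosome 6, had r = 0.02, while *Cd8b1* followed *Cd3d* at 0.72. The median over the 45 pairs was 0.22 and 33 were above 0. The lowest was *Cd8a* with *Cd5*, at -0.53. *Cd3g* had the widest slide-centred range of the 10, at 0.56, and of 13820 genes those most like it over the 12 arrays were *Tmsb15b1*, *Ctbs* and *Hibch*, each at r = 0.96.

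**Figure D4:**
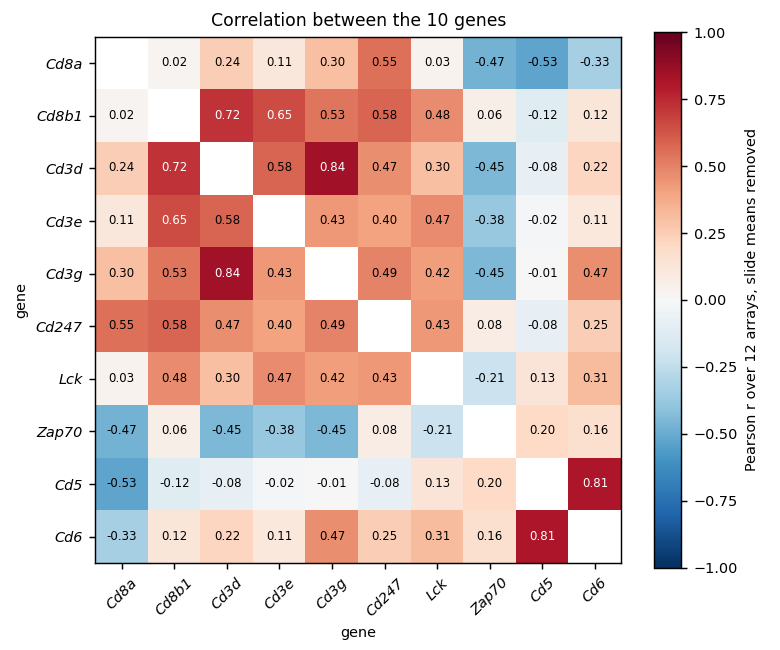
Pearson correlation between each pair of the 10 genes over 12 arrays after the mean of each slide was removed, from -1 (blue) to 1 (red). The pairs *Cd3d* with *Cd3g* (0.84) and *Cd5* with *Cd6* (0.81) are highest.

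The rest of the pathway, from lists of named genes, was largely as flat as the receptor. Of 24 adaptors and kinases next to the receptor, 0 were called in any of the 7 comparisons by limma, and at most 5 of them had an unadjusted p under 0.05 (5 of 24 for uMT against WT, where 17.8% of all features did). *Nck1*, an adaptor that links the receptor to actin, stood 0.48 ± 0.09 higher in AID KO than in WT, and *Cd28*, the main costimulatory receptor, 0.52 ± 0.11 lower, with adjusted p of 0.0734 and 0.102 in limma. Of 20 inhibitors, 19 could be tested and 0 were called. At most 4 had an unadjusted p under 0.05 in limma, in uMT against AID KO total cells and in MLN against PLN. Of all features 12.3% and 9.14% did so there. *Pag1*, the membrane adaptor that recruits CSK, stood 0.62 ± 0.15 lower in uMT than in WT (adjusted p = 0.160 in limma). Of 20 genes of the downstream branches 0 were called, with at most 3 at an unadjusted p under 0.05 in limma. That count was reached in both knockouts against WT, uMT against WT and MLN against PLN. Of all features 17.8%, 17.8% and 9.14% did so there.

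Genes that TCR signals switch on are given for comparison, from a list chosen with their results in view. Of 14 response genes, 6 were called lower and 0 higher by limma in total AID KO cells against WT, where 0.894% of all features were called. Counted by sign alone, 11 stood lower and 3 higher, so the list did not move as 1 class. The 3 higher were *Egr2*, *Egr3* and *Tnfrsf9*. In AID KO PLN and MLN *Egr2* read 2.65 and 2.25, against 1.85 to 2.69 in WT. *Egr3* read 1.33 and 0.86, against 0.92 to 1.17. *Tnfrsf9* read -0.03 and 0.31, against -0.48 to 0.16. The list median was -0.55 against 0.01 for all features. In the same comparison 8 of 8 B cell markers tested stood higher in AID KO, with a median of 0.44 and 0 called by limma (3 at an unadjusted p under 0.05). Their mean level per array ran from -2.33 to -1.71 in AID KO, -2.59 to -2.19 in WT and -2.77 to -2.53 in uMT. Of CD4 T cell markers, 5 of 6 stood lower in AID KO than in WT (median -0.12), and of haemoglobin genes 3 of 3 (median -0.21). By limma 0 were called in either list. The part of these other markers in the change was not tested. The 6 response genes called lower were *Fos* and *Jun*, subunits of AP-1, and *Nr4a1* and *Nr4a2*, nuclear receptors induced by the TCR. The others were *Cd69*, an early activation marker, and *Dusp4*, a phosphatase of MAP kinases. *Nr4a1* read 3.03 and 3.54 in AID KO, between 4.67 and 5.24 in WT, and 4.31 and 4.06 in uMT PLN and MLN. It fell by 1.66 on the log2 scale in AID KO (standard error 0.16, adjusted p = 0.0198 in limma), and in the same cells *Cd3e*, *Lck* and *Zap70* differed from WT by 0.06, -0.06 and 0.01. In uMT against WT 0 of the 14 were called by limma, with 4 at an unadjusted p under 0.05. Against AID KO, 3 of the 14 were called higher in uMT by limma, *Cd69* by 1.40, *Fos* by 1.76 and *Jun* by 1.16. Of all features 0.315% were called there. In that comparison 8 of 8 B cell markers stood lower in uMT (median -0.71, 0 called by limma, 4 at an unadjusted p under 0.05). There 6 of 6 CD4 T cell markers (median 0.40) and 3 of 3 haemoglobin genes (median 2.03) stood higher in uMT, with 0 called. Those 3 calls fell to 0 with the matched pair block, with no filter on dim probes, and without WT PLN 2 or WT MLN 2. They fell to 1 without WT PLN 1 or WT MLN 1. Of all features 0.00388% to 0.105% were called in these fits, against 0.315% in the main fit. Leaving out a knockout array leaves 1 in its group, and no count is given for it. The 6 calls in AID KO depended on the arrays too. Without the WT PLN 1, WT MLN 1 or WT MLN 2 array 0 were past the threshold, and without WT PLN 2 there was 1. With the matched pair block described among the alternatives it was 0 as well. Of all features 0.0583% to 0.163% were called in these fits, against 0.894% in the main fit, so calls were lost over all features. Without any 1 of the WT or AID KO total-cell arrays the list median lay between -0.60 and -0.53.

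**Figure D5:**
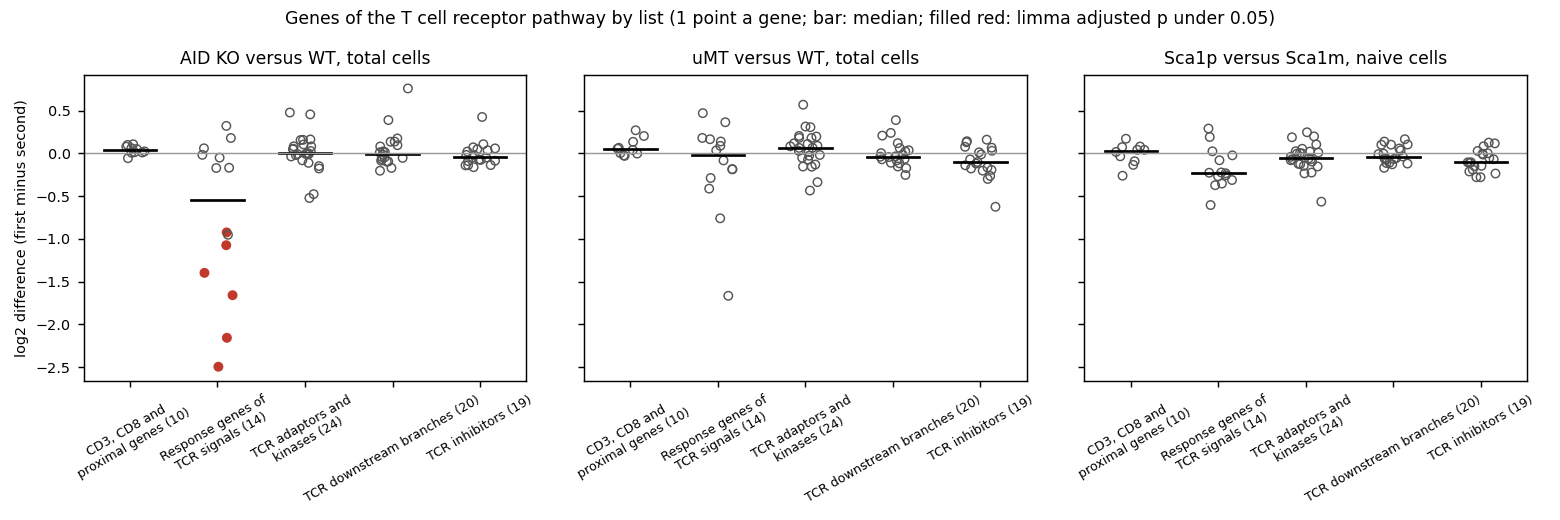
Log2 difference of each gene (1 point a gene) of the 10 receptor-proximal genes and of 4 pathway lists in 3 comparisons, with the bar at the list's median and filled red for an adjusted p under 0.05 in limma. The 6 filled points are response genes in AID KO, and the 10 receptor-proximal genes lie between -0.06 and 0.11 in that comparison.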

How the data were processed

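RNA of 12 sorted CD8+ T cell samples, extracted with a column kit per the labels' protocols, was hybridized to 12 Agilent 1-colour arrays. Per the file headers, the deposited scanner files give a processed intensity per spot from Agilent Feature Extraction 11.0.1.1, background-subtracted but not scaled between arrays, with other values such as flags for spots well above background, saturated or outlying. The authors' deposited series matrix holds log2 values, quantile normalized within each slide as judged from its sorted columns, and served as an alternative. The array's coordinates are on an older build, so none is printed from the files.

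Outlier spots (61 to 342 an array) were left out, and none was saturated. Spots of a probe were averaged, log2 values were shifted by each array's 75th percentile, and probes well above background on at least 2 arrays were kept. RefSeq accessions named 32994 of 56605 probes (GRCm38.p6). Differences were fitted with limma 3.58.1 in R 4.3.3 over 12 arrays, with terms for node, slide and genotype in total cells and for genotype, fraction and an intercept in naive cells. This left 4 residual degrees of freedom, 3 in the interaction fits. P-values, two-sided, were adjusted by Benjamini-Hochberg across the 25741 features, with calls at 0.05, and the fit was tested on simulated data. The number of arrays limits the precision. Scanner files lack a mean signal, so normexp (offset 50) was run on the median signal.

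The genes and lists were chosen with earlier results of these data known. All 10 genes were eligible to be named in every comparison. From each list, up to 8 genes past the threshold, otherwise the largest rise and fall, were eligible to be named. The 3 response genes that stood higher in AID KO are named as well. The 3 genes most like the one with the widest slide-centred range are given. Some genes that these rules or lists hold are not reported here. Alternatives covered background, scaling, filter, probe choice, slide term, arrays fitted, pairing and each array left out. Motifs were searched on both strands.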

Additional observations from a re-analysis of the deposited data

How the results depend on the processing

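The count of 0 called genes among the 10 held in all 158 recomputed counts, over 7 comparisons and 23 alternative settings where each applied. Of all features 0% to 3.07% were called in them. A count of 0 among 10 genes thus lay near the background throughout and carries little weight. The lowest adjusted p in limma among these was 0.197, for *Cd3g* in uMT against WT without the uMT PLN array. Of 1503 recomputed differences of single genes, 1392 moved by less than 1 standard error of the fit and 111 by more. Of the latter, 19 came with quantile normalization, 14 with scaling to the array median, and 11 each with the authors' series matrix and with the mean of all probes. The common sign of the 10 genes depended on scaling: 8 of 10 stood higher in the knockouts than in WT with the 75th percentile (median 0.04), 10 with the array median (0.12), 3 with quantile normalization (-0.04) and 3 of 9 found in the series matrix (-0.03). For uMT against WT the same counts were 7, 10, 3 and 3. The labels give no shared replicate numbers, but the titles of both WT PLN samples name the knockout each was the control for, and the MLN samples were paired by slide. The fit with these pairs, a matched pair block, called 0.0583% of all features in AID KO against WT, in place of 0.894%. It called 0 of the 10 genes, and 0 of the 14 response genes in AID KO against WT in place of 6. Over all alternatives that count ran from 0 to 7 and was 1 with no filter on dim probes. With 4 residual degrees of freedom, the number of arrays limits what could be detected, as the intervals show.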
